A study of Canis lupus familiaris with 77 samples.

Results

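The miRNA cfa-miR-490 was followed through a miR-seq atlas of untreated male Beagle dogs, as 1 of the 650 miRNAs with reads in the deposited table. The row is named for the dog miRNA and also carries the human and rat names miR-490-3p, so it holds the 3p arm of the precursor. The other arm has a row of its own, hsa-miR-490-5p, which was named from human and rat annotation. The miRNA was chosen by its measured level in heart and gut, so its levels are given as descriptions and without a test.

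The atlas covered 16 tissues, with 5 libraries each of heart, skeletal muscle (quadriceps), brain, duodenum, jejunum, ileum, liver, kidney, lung, pancreas, plasma, bone marrow, testis and thymus, 4 of colon and 2 of sciatic nerve. All dogs were Marshall Beagles under a year of age, received no treatment, and were perfused with saline before the organs were taken. The brain samples have no region in the labels, and the labels do not say which libraries came from the same dog. The sciatic nerve samples are described in more than 1 way by the study, so whether the 2 come from separate dogs is not settled.

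A miRNA precursor is a short RNA hairpin that is cut into a duplex of a 5p and a 3p strand, one of which is usually kept in the silencing complex while the other is mostly degraded. The kept strand pairs with messenger RNAs through its seed near the 5′ end and lowers their translation or stability. In the RefSeq gene table of the dog assembly UU_Cfam_GSD_1.0, MIR490 lies within the span of 1 other gene, CHRM2, which encodes the muscarinic M2 acetylcholine receptor. This receptor slows the heart beat in response to the vagus nerve and is also found in smooth muscle and brain. That assembly is not the one the reads were aligned to, so no coordinates are given.

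The libraries held from 157871 to 7896424 reads on miRNAs, with a median of 1364823. Levels are in RPM, the reads of a miRNA for every 1000000 reads on miRNAs in the library. A library with no read of a miRNA allows up to 3 reads, or 0.380 RPM at the largest depth and 19.0 RPM at the smallest. Several libraries stood apart. Skeletal muscle replicate 4 held 735 RPM of the striated muscle list (miR-1, miR-133, miR-206, miR-208 and miR-499 with their arms), against 39240 to 116591 RPM in the other 4. Brain replicate 3 held 24059 RPM of the intestinal epithelium list (miR-192, miR-194, miR-215, miR-375 and the miR-200 family), against 2876 to 6235 RPM in the other 4. Of this, 23546 RPM was cfa-miR-192 alone. The highest brain value of cfa-miR-429, of the miR-200 family, was 1278 RPM and lay in another library. Duodenum replicate 4 held 6483 RPM of that list and duodenum replicate 3 held 36665 RPM, against 99215 to 544944 RPM in the other 3. In a bulk library, fewer cells of a type and less RNA per cell cannot be told apart.

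Heart had the highest level of cfa-miR-490. The 5 heart libraries held 84.6, 178, 263, 58.7 and 282 RPM, from 668, 75, 422, 36 and 393 reads. The mean was 173 ± 101 RPM (SD, n = 5), and heart contributed 43.9% of the 3634 reads of this miRNA in the table. Replicates 3 and 5 were the highest of all 76 libraries. The spread was wide, with 4.80 times between the lowest and the highest library. In the 2 with the most reads, replicates 1 and 3, the 95% Wilson intervals, which cover counting error only, were 78.4 to 91.3 RPM and 239 to 289 RPM. By mean level cfa-miR-490 ranked 89 among the 486 miRNAs with reads in heart.

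Brain was second and stood above every gut segment, although the miRNA was picked for heart and gut. The brain libraries held 69.99, 106, 32.4, 117 and 102 RPM, a mean of 85.4 ± 34.4 RPM (SD, n = 5). The lowest, replicate 3, was the brain library whose intestinal epithelium list was high through cfa-miR-192. Without it the brain mean was 98.6 RPM. The place of brain over gut depended on how libraries were scaled. With edgeR TMM sizes brain stood at 41.4 RPM and ileum stood at 41.5 RPM, and with DESeq2 size factors the values were 42.9 and 41.1 RPM. Heart stayed highest under both, at 165 and 199.8 RPM.

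The 4 gut segments followed with overlapping ranges. In ileum the libraries held 39.6, 14.9, 29.2, 82.4 and 49.4 RPM, a mean of 43.1 ± 25.4 RPM (SD, n = 5). In jejunum they held 44.2, 15.9, 20.9, 43.4 and 33.7 RPM, a mean of 31.6 ± 12.9 RPM (SD, n = 5). Values in both segments spread several-fold between libraries. In duodenum they held 36.1, 6.21, 37.5, 31.1 and 8.41 RPM, a mean of 23.9 ± 15.3 RPM (SD, n = 5). In colon the 4 libraries held 22.0, 21.3, 22.1 and 13.7 RPM, a mean of 19.8 ± 4.07 RPM (SD, n = 4). Duodenum had 3 libraries above 30 RPM and 2 below 10 RPM, while colon was the most even of the segments.

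**Figure D1:**
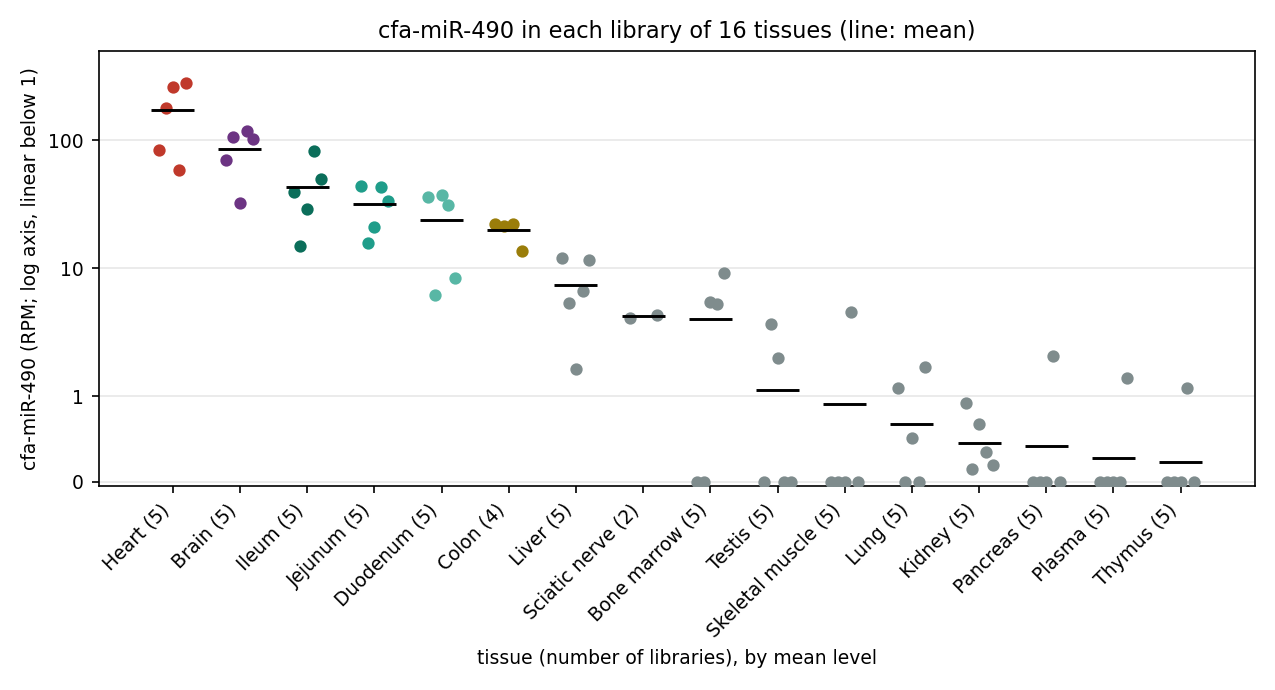
Level of cfa-miR-490 in RPM (vertical axis, logarithmic above 1 and linear below) in each library of the 16 tissues, ordered by mean level; points are libraries and lines are means. The 5 heart libraries sit between 58.7 and 282 RPM, brain follows, the 4 gut segments overlap each other, and no other tissue passes 12.0 RPM.

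The order of the tissues was thus heart, brain, ileum, jejunum, duodenum and colon. The difference of the means between neighbours was 0.870 of the larger SD for heart over brain and 1.23 for brain over ileum, and both pairs of ranges overlapped. It was 0.450 for ileum over jejunum, 0.506 for jejunum over duodenum and 0.267 for duodenum over colon, so the segments did not differ beyond their spread. The first step in the order without overlap was from colon to liver. Of the 5 heart libraries, 4 were above the highest of the 19 gut libraries and 3 were above the highest brain library.

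Outside heart, brain and gut the level was low. Liver held 1.63 to 12.0 RPM in 5 libraries, with a mean of 7.45 ± 4.37 RPM (SD, n = 5). The 2 sciatic nerve libraries held 4.12 and 4.29 RPM from 4 and 5 reads. Bone marrow, with no more than 2 reads in a library, had a mean of 3.98 RPM. The remaining 7 tissues had means of 0.234 to 1.12 RPM, and none of their libraries held more than 4 reads. Of the 47 libraries outside heart, brain and gut, 24 had a read of cfa-miR-490 and 8 had more than 3. All but 2 of the gut libraries were above the highest of these 47, and the exceptions were duodenum replicates 2 and 5.

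Against the mean of all other libraries, heart was 11.3-fold higher, a ratio that ranked 11 among the 650 miRNAs in heart, where 14 or 2.15% passed a ratio of 5. Brain was 3.98-fold higher, ileum 1.76-fold and jejunum 1.25-fold. Colon, at 0.761, was below the mean of the other libraries, which includes heart. Duodenum was at 0.925, but above 1 with TMM sizes (1.38), with DESeq2 size factors (1.22), with its median (1.21) and without duodenum replicate 2 (1.10) or 5 (1.08). With heart, brain and gut taken out of the reference, the ratio was 94.7 in heart, 46.7 in brain, 23.5 in ileum, 17.3 in jejunum, 13.0 in duodenum and 10.8 in colon. The heart median was 1.52 times the highest library of any other tissue, which was a brain library.

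Skeletal muscle, the other striated muscle of the atlas, had almost no cfa-miR-490. There was 1 read in its 5 libraries, in replicate 4, beside 1594 reads in heart. The summed levels were 134 RPM in heart and 0.244 RPM in skeletal muscle, a ratio of 547 with an exact 95% counting interval of 98.0 to 21611. The interval does not cover the spread among heart libraries. The single read came from the library that was low in striated muscle miRNAs. In the other 4 skeletal muscle libraries there was no read, and the summed heart level was 172 times the floor of 3 reads over that group.

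The muscle miRNAs were compared between the same tissues with edgeR's quasi-likelihood test and Benjamini-Hochberg adjustment over the 209 miRNAs that passed its filter. Of these, 10 (4.78%) were higher in heart and 20 (9.57%) higher in skeletal muscle, and with the deposited totals and no further scaling the counts were 15 and 4. The median log2 fold change of the tested miRNAs moved from -0.19 to 0.38 between these scalings. Of the 12 striated muscle rows 6 were tested and 1 passed. That was cfa-miR-499, which lies in a myosin gene and rose in heart by 2.82 on the log2 scale (SE 0.80, adjusted p = 0.0352). The median log2 fold change of the 6 was -0.02, beside -0.19 over all tested. Of the 3 tested rows of the smooth muscle list (miR-143 and miR-145) none passed, and their median was 1.05. Of the 2 tested neural rows, cfa-miR-9 rose in heart by 2.98 (SE 0.63, adjusted p = 0.00981) and cfa-miR-128 fell by 1.81 (SE 0.41, adjusted p = 0.0122), both by edgeR. Of these calls, cfa-miR-9 held without each library in turn. The call of cfa-miR-499 was lost without heart replicate 1, 2 or 5 or skeletal muscle replicate 1, 3 or 5, with adjusted p of 0.0609 to 0.107 by edgeR, and that of cfa-miR-128 without heart replicate 2 or 5, with 0.0581 and 0.0586. That of cfa-miR-128 was also lost with the deposited totals and with no filter on low counts, at adjusted p of 0.213 and 0.0511 by edgeR. No row of the intestinal epithelium, blood and leukocyte, or endothelium lists passed, with 6, 8 and 2 rows tested.

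The level in heart was set beside the lists. Heart replicate 4, lowest in cfa-miR-490, was also lowest in the striated muscle list, at 44316 RPM against 75937 to 113030 RPM in the other 4. It was highest in the blood and leukocyte list, at 275143 RPM against 100580 to 122019 RPM, but 274598 RPM of this was cfa-miR-486. The rest of that list together held less there than the heart mean of cfa-miR-451, 2689 ± 2693 RPM (SD, n = 5). Replicate 4 was lowest in the smooth muscle and endothelium lists too, at 98024 and 14015 RPM. Without it the heart mean was 202 RPM. Replicate 1, next lowest in cfa-miR-490, was next lowest in the striated muscle list, and replicate 5 was highest in both. Replicates 2 and 3 held 96320 and 92211 RPM of that list, in the reverse order of their 178 and 263 RPM of cfa-miR-490. Replicate 1 was lowest in the blood and leukocyte list and highest in the smooth muscle list. The part of these differences in the level of cfa-miR-490 was not tested.

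Within the gut, the level was set beside the intestinal epithelium and smooth muscle lists. In all 4 segments the library with the least cfa-miR-490 had the highest epithelium sum of its segment. These were duodenum replicate 2 at 544944 RPM, jejunum replicate 2 at 554482 RPM, ileum replicate 2 at 339037 RPM and colon replicate 5 at 239596 RPM. In 3 of the 4 segments the same library had the lowest smooth muscle sum, and ileum was the exception. The library with the most cfa-miR-490 had the highest smooth muscle sum in 2 segments, ileum and duodenum. Ileum replicate 4, highest in the gut at 82.4 RPM, held 441029 RPM of smooth muscle miRNAs, against 137451 to 255685 RPM in the other 4 ileum libraries. Duodenum replicate 1 went the other way, with 36.1 RPM of cfa-miR-490 beside 137019 RPM of the smooth muscle list. All these values are shares of the same library total, and the part of cell composition was not tested.

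**Figure D2:**
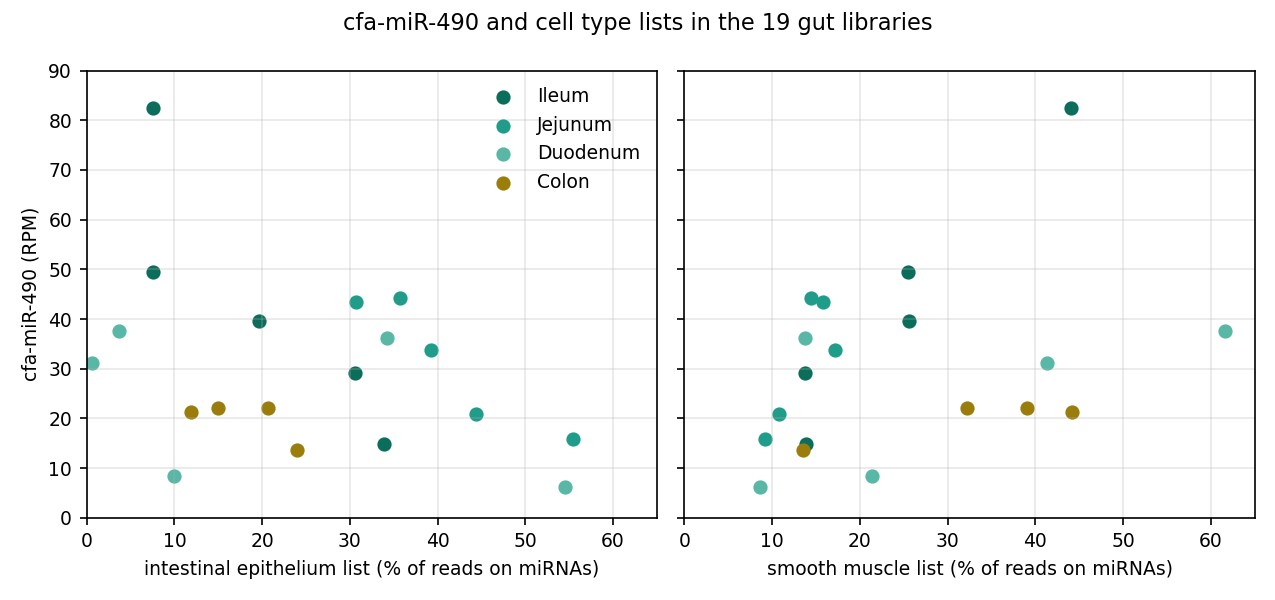
Level of cfa-miR-490 in RPM (vertical axes) against the summed level of the intestinal epithelium list (left) and of the smooth muscle list (right), in percent of the reads on miRNAs of a library, for the 19 gut libraries; each point is a library and colour marks the segment. In each segment the lowest point lies farthest to the right on the left panel.

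Colon against the small intestine (the 15 duodenum, jejunum and ileum libraries, weighted equally by segment) gave a log2 fold change of cfa-miR-490 of -0.72 (SE 0.54), given as a description. Across the 287 miRNAs tested by edgeR, 5 (1.74%) were higher in colon and 6 (2.09%) higher in the small intestine. None of the 4 smooth muscle rows passed. Of 14 tested epithelium rows 1 passed, cfa-miR-215, which was lower in colon with a log2 fold change of -3.86 (SE 1.06, adjusted p = 0.0456 by edgeR). Of 4 tested neural rows hsa-miR-124-5p passed, lower in colon with a log2 fold change of -3.62 (SE 0.98, adjusted p = 0.0456 by edgeR). Both calls were lost without any of the 4 colon libraries in turn, with adjusted p of 0.118 to 0.15 for cfa-miR-215 and 0.0829 to 0.148 for hsa-miR-124-5p by edgeR, and with the deposited totals, at 0.0512 and 0.0569. The call of cfa-miR-215 was also lost without duodenum replicate 1, ileum replicate 1, 2 or 3 or any jejunum replicate, with adjusted p of 0.052 to 0.0659 by edgeR. That of hsa-miR-124-5p was lost without ileum replicate 1 or 3 or jejunum replicate 1, 2, 3 or 4, with 0.052 to 0.0627. The other arm of miR-124, cfa-miR-124, was not among the rows tested. Its mean was 2.47 ± 1.56 RPM in colon (SD, n = 4). It was 5.92 ± 3.04 RPM in duodenum, 2.76 ± 1.56 RPM in ileum and 1.49 ± 0.990 RPM in jejunum (SD, n = 5 each). In brain its mean was 3304 ± 1145 RPM (SD, n = 5). Since cfa-miR-124 was not tested, the call of hsa-miR-124-5p covers 1 arm only and is not read as a neural difference. None of the 9 blood and leukocyte, 4 striated muscle and 2 endothelium rows tested passed.

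The opposite arm, hsa-miR-490-5p, was rarer, with 251 reads in the table against 3634 of the 3p arm. Its highest tissue was brain rather than heart. Brain libraries held 6.36, 10.6, 1.47, 23.7 and 14.8 RPM of the 5p arm, a mean of 11.4 ± 8.48 RPM (SD, n = 5). Heart libraries held 0.380, 0, 1.24, 3.26 and 2.87 RPM, a mean of 1.55 ± 1.46 RPM (SD, n = 5). The brain range reached down into the heart range through replicate 3 alone. Jejunum had a mean of 5.56 ± 4.42 RPM (SD, n = 5), duodenum 2.73 ± 1.75 (SD, n = 5), colon 2.52 ± 3.45 (SD, n = 4) and ileum 2.16 ± 2.57 RPM (SD, n = 5). The arm had too few reads to pass the filter of either edgeR comparison.

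The share of the 5p arm among the reads of both arms holds the 3p reads by whose level the miRNA was chosen, so it is not independent of that choice and no p is given for it. Heart gave 11 reads of the 5p arm beside 1594 of the 3p arm, a pooled share of 0.685% with a 95% Wilson interval of 0.383 to 1.22%. Brain gave 111 beside 868 reads, a pooled share of 11.3% with an interval of 9.50 to 13.5%. Jejunum gave 57 beside 271 reads, a pooled share of 17.4% with an interval of 13.7 to 21.9%. The pooled shares were 10.5% in duodenum, 7.47% in colon and 5.19% in ileum, from 16, 18 and 24 reads of the 5p arm. The intervals cover counting error only, and the share differed among libraries of a tissue.

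Over libraries with at least 20 reads of both arms, the mean share was 1.44 ± 2.17% in heart (SD, n = 5). The heart libraries had 0.447, 0, 0.472, 5.26 and 1.01%, and the highest of these, replicate 4, rested on 2 of 38 reads. In brain the libraries had 8.33, 9.09, 4.35, 16.8 and 12.7%, a mean of 10.3 ± 4.72% (SD, n = 5). In jejunum they had 8.70, 11.1, 5.88, 20.9 and 20.8%, a mean of 13.5 ± 6.96% (SD, n = 5). The heart libraries lay below all jejunum libraries, and 4 of the 5 lay below all brain libraries. Duodenum had 16.7, 5.45 and 13.0% in 3 libraries, colon 6.52, 0 and 6.35% in 3, and ileum 3.97, 16.7, 0, 6.98 and 0% in 5. Colon replicate 2 fell short of the limit with 19 reads of both arms. Its share was 26.3%, from 5 reads of the 5p arm. Duodenum replicates 1 and 5 fell short with 18 and 9 reads, and had 11.1% each. Shares in ileum and colon overlapped those of heart.

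The differences in mean share are given as descriptions. Heart was 12.0 percentage points below jejunum, 10.3 below duodenum and 2.85 below colon, whose mean leaves out replicate 2 at 26.3%. It was 4.08 points below ileum, and 1.30 points below without ileum replicate 2. Brain, added after its level was seen, was 8.82 points above heart, and 9.78 points above with at least 50 reads of both arms required, which leaves out heart replicate 4. The signs of the differences of duodenum from jejunum, of ileum from colon and of brain from duodenum changed when single libraries were left out.

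**Figure D3:**
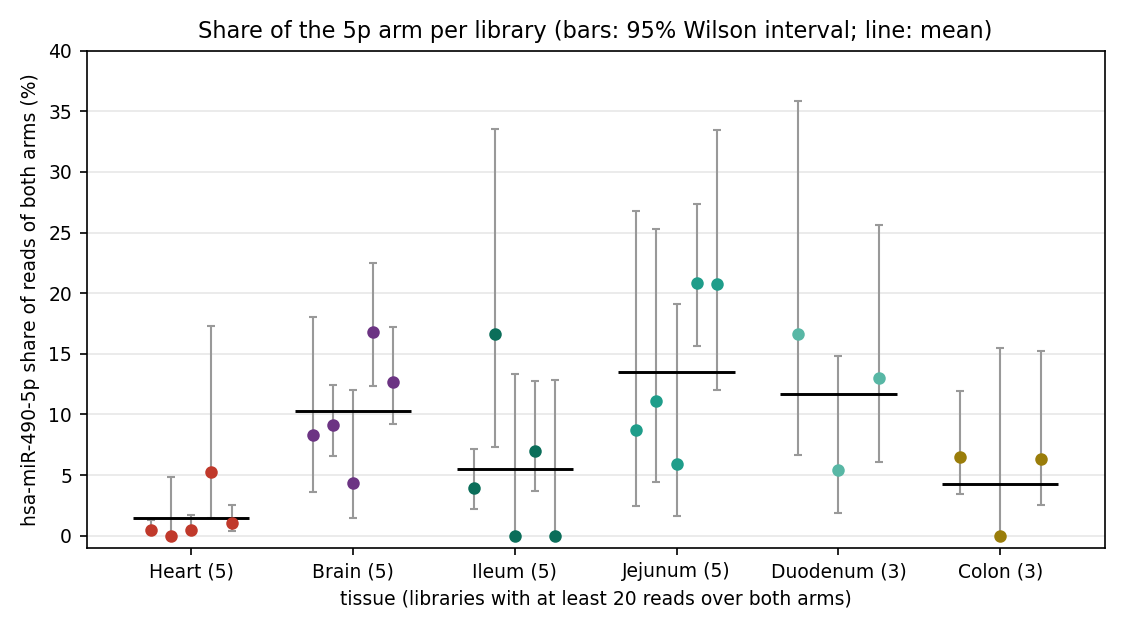
Share of hsa-miR-490-5p among the reads of both arms in percent (vertical axis) for each library with at least 20 such reads, by tissue; bars are 95% Wilson intervals and lines are means. Heart libraries lie at 0 to 5.26%, jejunum libraries at 5.88 to 20.9% and brain libraries at 4.35 to 16.8%.

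The tissue profile of cfa-miR-490 was compared with those of 435 other miRNAs with a mean of at least 10 RPM in some tissue, by the Pearson correlation of log2(mean RPM + 1) over the 16 tissue means. The most similar was its own opposite arm, hsa-miR-490-5p, with r = 0.846. Next were cfa-miR-342 with r = 0.662, hsa-miR-29b-2-5p with r = 0.622, hsa-miR-139-5p with r = 0.603 and hsa-miR-124-5p with r = 0.589. These are descriptions over 16 points. All 5 had their highest mean in brain. For cfa-miR-342 the means were 981 ± 491 RPM in brain and 121 ± 45.6 RPM in heart (SD, n = 5 each). For hsa-miR-124-5p, an arm of a neuronal miRNA, the means were 25.6 ± 15.0 RPM in brain and 25.2 ± 7.42 RPM in jejunum (SD, n = 5 each), with no read in heart. The other arm, cfa-miR-124, ranked 7 in similarity to cfa-miR-490, with r = 0.553. It did not share the jejunum level of hsa-miR-124-5p, with 3304 ± 1145 RPM in brain and 1.49 ± 0.990 RPM in jejunum (SD, n = 5 each). Of the 435 miRNAs, only hsa-miR-490-5p had r above 0.7, and it was not among the 17 with their highest mean in heart.

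**Figure D4:**
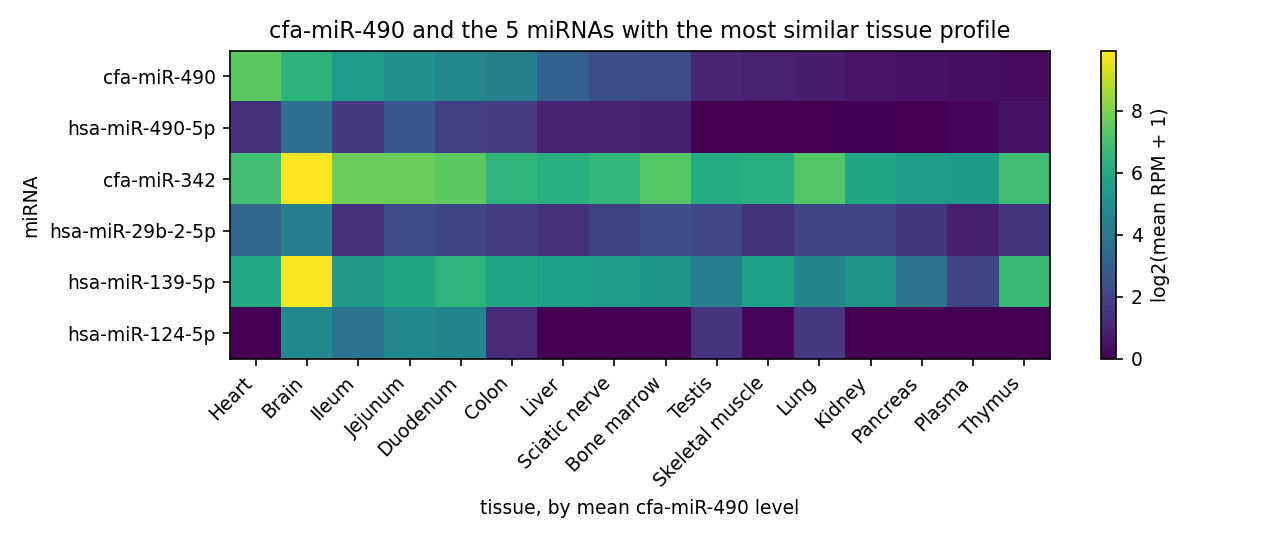
Mean level by tissue, as log2(mean RPM + 1) in colour, of cfa-miR-490 and the 5 miRNAs with the highest correlation to it, with tissues ordered by the mean of cfa-miR-490. In the first row the heart cell is the brightest, and in each of the other rows the brain cell is.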

How the data were processed

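The miR-seq libraries were made with a TruSeq Small RNA kit. The authors clipped adaptors, aligned the reads without mismatches to CanFam3.1 (named in the submitters' processing notes) with OSA, dropped reads with many genomic locations, and with bedtools counted reads that overlapped most of a dog, rat or human miRNA locus. The deposited values were raw counts, each library's total of reads on miRNAs and RPM, the count scaled to that total, along with a highest RPM per miRNA over all samples that was not used. Reads shared by near-identical miRNAs cannot be told apart in such counts. Absent rows were set to 0. The deposited RPM was checked against the counts (largest relative deviation 2.89e-09). Tissues were taken from the labels. Of 77 labelled samples 76 were used, since 1 colon sample had no values, and 1 sample name in the table matched no single labelled sample and was not used. Of 147 pairs of libraries from the same tissue none agreed within sampling noise (lowest chi-square per degree of freedom 10.3). The study took its tissues from 5 dogs, but the labels do not number them, so libraries could not be tied to dogs and effects shared by tissues of the same dog were not modelled.

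The miRNA, the lists and the tests were chosen with earlier results of these data known. The miRNAs named were cfa-miR-490, its opposite arm, the list members and the 5 most similar profiles. Detection needed 1 read, intervals were 95% Wilson or exact, and the floor was 3 reads. Exact permutation tests of the arm shares were planned and run, and none of the 10 planned passed after Benjamini-Hochberg adjustment. Their p-values are not reported, since the share holds the reads that chose the miRNA. Heart against skeletal muscle and colon against small intestine were fitted on the counts in R 4.3.3 by the quasi-likelihood test of edgeR 4.0.16, with TMM sizes, filterByExpr and an adjusted p threshold of 0.05, after a check on simulated data. The simulated counts had a dispersion (spread between libraries) of 0.1 and no outlying library, unlike the data. For heart against skeletal muscle 54% of 2-fold and 85% of 4-fold changes were recovered, and for colon against small intestine 75% and 93%. DESeq2 1.42.0, other scalings, filters, thinning and leaving out libraries served as alternatives. Other steps ran in Python 3.11.15 (scipy 1.17.1, pandas 2.3.3, numpy 2.4.6), and figures were drawn with matplotlib 3.10.9.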

Additional observations from a re-analysis of the deposited data

Results flagged for a closer look

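A library was singled out where its gap to the nearest library of its group, divided by the range of the group, passed Dixon's 95% critical value. This was so in 7 of 37 groups. Chance gives about 1 in 20 groups for values without ties, but in 4 of the 7 every other library had no read, which fixes the ratio at 1, so the number of such groups is not read against chance. Levels of cfa-miR-490 among them are descriptions. Colon replicate 5 had 13.7 RPM of cfa-miR-490 from 59 reads, and the next colon library had 21.3 RPM. Pancreas replicate 4 had 2.06 RPM from 3 reads, plasma replicate 5 had 1.38 RPM from 2 reads, skeletal muscle replicate 4 had 4.54 RPM from 1 read and thymus replicate 4 had 1.17 RPM from 4 reads. The other libraries of pancreas, plasma, skeletal muscle and thymus had no read. Heart replicate 4 had a 5p arm share of 5.26%, from 2 of 38 reads, and the next heart library had 1.01%. Brain replicate 3 had 24059 RPM of the intestinal epithelium list, 23546 RPM of it cfa-miR-192, and the next brain library had 6235 RPM.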

How the results depend on the processing

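With edgeR TMM sizes or DESeq2 size factors, the brain level was 41.4 or 42.9 RPM, its ratio to all other libraries 1.94 or 1.82, and its median over the highest other library 0.165 or 0.148. In colon, TMM moved these ratios to 0.998 and 0.0958. The duodenum ratio passed 1 with both scalings, with the median and without duodenum replicate 2 or 5. Without the 5 most abundant miRNAs in the total, the levels were 347 RPM in heart, 156 in brain, 109 in ileum, 77.4 in jejunum, 74.5 in duodenum and 57.8 in colon. With heart, brain and gut out of the reference, an alternative added after the values were seen, the ratios were 94.7, 46.7, 23.5, 17.3, 13.0 and 10.8 in the same order. The heart ratio stayed above 5 without each heart library in turn, at 9.56 to 13.2. Of 53 libraries with a read of cfa-miR-490, 31 had at least 10 reads.

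Heart against skeletal muscle gave 10 higher and 20 lower miRNAs. The counts were 21 and 39 with DESeq2, 21 higher with no filter, 30 and 31 in a fit over all tissues, and 4 lower with the deposited totals. Without each library in turn they were 5 to 18 higher (5 without skeletal muscle replicate 1, 18 without heart replicate 4 or skeletal muscle replicate 2, 17 without skeletal muscle replicate 4) and 9 to 25 lower. Colon against small intestine gave 5 higher and 6 lower. The counts were 8 higher with DESeq2, 12 with no filter, 14 in the fit over all tissues, and 3 lower with the deposited totals. Without each library in turn they were 4 to 7 higher and 3 to 6 lower. The cause of these changes was not tested.

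3 differences in arm share changed sign. Duodenum minus jejunum became 0.111 and 0.0795 points without jejunum replicate 4 or 5, between -3.64 and 0.111 in all. Ileum minus colon became -1.55 points without ileum replicate 2, up to 2.61 otherwise, and -0.055 as a log2 ratio of the arms. Brain minus duodenum became 0.0129 points without brain replicate 3, beside -1.46 with all libraries and -3.11 without brain replicate 4. The brain and heart difference was 9.78 points with at least 50 reads over both arms, and heart minus ileum ranged from -5.47 to -1.30 points without each library in turn. Of the 5 most similar miRNAs, 2 remained with Spearman's correlation, 3 over libraries and 4 with a pseudocount of 10 RPM. No paired analysis was possible because the labels carry no dog number. Few reads limit the 5p arm, with 11 in heart, and the level in shallow libraries, where no read allows up to 19.0 RPM.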
